A study of Mus musculus with 23 samples.

Results

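The genes described here encode the proteins of the cytosolic ribosome. They were taken from the deposited expression table by name: a symbol beginning with Rpl or Rps followed by a number and the usual paralog letters, the stalk genes Rplp0, Rplp1 and Rplp2, or Rpsa. Of the 21264 genes in the table, 84 had such a name, and 82 of these reached at least 1 CPM (counts scaled to a common library total) in at least 3 of the 23 libraries. The 82 genes comprised 50 of the large subunit and 32 of the small subunit. The other two, Rpl10l and Rpl39l, are paralogs that stayed below that level and are given at the end.

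A cytosolic ribosome contains 1 copy of most of its proteins, so cells make these proteins in matched amounts and degrade the surplus. Many of their mRNAs carry a pyrimidine tract directly at the 5′ end, the terminal oligopyrimidine or TOP element, through which mTOR and Larp1 control their translation and stability. Quiescent muscle stem cells are known for low protein synthesis, and a few ribosomal proteins have tissue-restricted paralogs, among them Rpl3l, the striated-muscle counterpart of Rpl3.

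The study asked how Notch1 signalling affects engraftment of iPax3 cells, a mouse pluripotent stem cell line, shared by all groups, in which Pax3 directs myogenic differentiation. In N1OE cells NICD1 is overexpressed, which is the part of Notch1 that enters the nucleus and activates transcription, N1KO cells are labelled Notch1 knockout, and control cells are iPax3 cells labelled WT. Bulk RNA was sequenced from donor-derived satellite cells that had been re-isolated after engraftment (4 N1OE, 3 N1KO and 9 control libraries) and from myogenic progenitors kept in culture (3 N1OE and 4 control libraries). The labels give neither the host, nor the number of animals or clones, nor the promoter that drives NICD1, and they do not say whether the libraries of a group had separate origins, so the spread that p-values rest on may be technical.

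Library kit and setting were joined. Per the labels, cultured cells gave stranded mRNA libraries from ample RNA, and re-isolated cells gave amplified cDNA from low input cut by a transposase, so a difference between the settings cannot be told apart from one between the kits. The libraries held between 11637817 and 29154176 reads. Notch1 had 247, 257, 151 and 98.1 CPM in re-isolated N1OE cells, 15.6, 19.8 and 52.6 CPM in re-isolated N1KO cells, and 14.9, 88.9, 27.5, 52 and 72.9 CPM in 5 and 136, 174, 156 and 149.8 CPM in 4 of the re-isolated controls. The first 5 of these controls (replicates 1, 4, 7, 8 and 9) carry the suffix GoF in their column header and the other 4 do not. Against all 9 controls, the ranges of N1KO and control libraries overlapped. The limma adjusted p was 0.29 for re-isolated N1KO against control and 0.19 for re-isolated N1OE against control. Controls with the suffix had less Notch1 than those without (-1.85 on the log2 scale, limma adjusted p = 0.0098). Every N1KO library lay below the controls without it but overlapped those with it. Every N1OE library lay above the controls with it but overlapped those without it. The labels do not say which part of Notch1 was deleted, so reads from outside it would not test the label. In culture Notch1 was 369.8, 297 and 322 CPM in N1OE cells against 61.3, 78.4, 71 and 105 CPM in controls (adjusted p = 0.0024). Of 12 myogenic and satellite cell markers, none was absent from a group, and their summed level was 2756 to 3837 CPM in re-isolated N1OE cells, 1391 to 2881 in re-isolated N1KO cells, 1608 to 4012 in re-isolated controls, 1674 to 1969 in cultured N1OE cells and 1511 to 2809.5 in cultured controls. Pax7 itself stood between 0 and 0.891 CPM in the cultured libraries. The 5 fibro-adipogenic markers summed to 574 to 1267, 3643 to 9633, 180.1 to 7956, 10.7 to 14.5 and 43.7 to 275 CPM in the same order of groups, and the 6 macrophage markers, of which Adgre1 and C1qa were at 0 in culture, to 22.8 to 118, 149 to 516, 36.6 to 552, 4.5 to 7.68 and 3.08 to 11.6 CPM. In bulk RNA, fewer cells of a type and less RNA per cell cannot be told apart, and the part of other cell types in the differences below was not tested.

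RefSeq promoter windows on GRCm38.p6 were at hand for 62 of the 82 genes, with 74 annotated starts. A run of at least 7 pyrimidines that covered or came within 2 bases of the start was present at 32.4% of these starts and at 9.75% of all 32851 starts in the table, and 24 of the 62 genes had one. Annotated starts were not checked against the starts of the mRNAs in these cells, and runs farther away were not counted. A gene without a run here may thus still carry a TOP element. A C stood at the start itself in 29.7% of the genes' starts and in 16.3% of all. In the 250 bases before the start, searched on both strands, CCGGAA (the core of ETS-family sites) was found at 35.1% against 12% of all starts, GGGCGG (the GC box) at 48.6% against 32.7%, and CACGTG (the E-box bound by Myc) at 9.46% against 6.02%. A match describes letters only and is no evidence of binding. The first sequences below, each from 60 bases before to 20 after the start, show such runs at different lengths, including genes that recur in the results (Rpl35, Rpl15 and Rpl27a). They are Rpl15 (chr14:18270967-18271046, minus strand), Rpl27a (chr7:109519135-109519214, plus strand), Rpl35 (chr2:39005112-39005191, minus strand), Rpl7a (chr2:26910747-26910826, plus strand), Rps18 (chr17:33955646-33955725, minus strand) and Rps27 (chr3:90213629-90213708, minus strand). The remaining sequences belong to genes on which later results turn: Rpl22l1 (chr3:28805448-28805527, plus strand), its partner Rpl22 (chr4:152324376-152324455, plus strand), Rpl3l (chr17:24727766-24727845, plus strand) and Rps28 (chr17:33824543-33824622, minus strand). Capitals mark the pyrimidine run at the start, which has 17 bases in Rpl15, 20 in Rpl27a, 18 in Rpl35, 21 in Rpl7a, 11 in Rps18, 9 in Rps27 and 10 in Rpl22l1, but 4 in each of Rpl22, Rpl3l and Rps28.
Rpl15: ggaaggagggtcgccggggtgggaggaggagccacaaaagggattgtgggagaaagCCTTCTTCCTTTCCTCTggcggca
Rpl27a: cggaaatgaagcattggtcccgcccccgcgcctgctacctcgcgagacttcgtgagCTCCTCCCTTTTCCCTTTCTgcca
Rpl35: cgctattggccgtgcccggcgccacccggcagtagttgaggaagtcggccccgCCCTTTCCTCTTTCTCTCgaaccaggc
Rpl7a: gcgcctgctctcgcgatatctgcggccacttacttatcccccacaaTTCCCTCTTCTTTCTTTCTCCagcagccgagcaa
Rps18: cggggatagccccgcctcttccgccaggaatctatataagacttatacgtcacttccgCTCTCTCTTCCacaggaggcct
Rps27: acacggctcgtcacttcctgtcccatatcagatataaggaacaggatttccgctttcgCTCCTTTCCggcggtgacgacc
Rpl22l1: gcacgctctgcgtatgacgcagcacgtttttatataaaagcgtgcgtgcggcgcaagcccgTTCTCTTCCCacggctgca
Rpl22: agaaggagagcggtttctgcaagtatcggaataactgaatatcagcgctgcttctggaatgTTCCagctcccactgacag
Rpl3l: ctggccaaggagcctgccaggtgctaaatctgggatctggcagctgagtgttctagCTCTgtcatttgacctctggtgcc
Rps28: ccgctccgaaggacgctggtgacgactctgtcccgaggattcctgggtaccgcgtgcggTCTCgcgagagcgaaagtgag

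Ribosomal protein mRNAs took a smaller share of the reads in re-isolated cells than in cultured cells. The 82 genes held 1.83, 1.09, 1.17 and 1.14% of all reads in the 4 re-isolated N1OE libraries and 2.07, 1.13 and 1.47% in the 3 re-isolated N1KO libraries. They held 1.36, 1.7, 1.37, 1.45 and 1.9% in the 5 GoF-marked and 2.0, 1.72, 2.84 and 3.01% in the 4 unmarked re-isolated controls. In culture the share was 5.12, 5.5 and 5.47% in N1OE cells and 5.03, 5.36, 5.4 and 4.86% in controls. The highest re-isolated library, at 3.01%, thus lay below the lowest cultured one, at 4.86%. Group means were 1.31 ± 0.35% in re-isolated N1OE, 1.56 ± 0.475% in re-isolated N1KO and 1.93 ± 0.61% in re-isolated control cells (SD, n = 4, 3 and 9), which overlapped, against 5.36 ± 0.21% and 5.16 ± 0.261% in cultured N1OE and control cells (n = 3 and 4). The reads of mitochondrially encoded genes took 0.286 to 1.15%, 0.685 to 1.36%, 0.434 to 2.03%, 3.37 to 3.76% and 3.32 to 3.86% in the same groups, and leaving them out of the total gave mean shares of 1.32%, 1.58%, 1.95%, 5.56% and 5.35%.

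Large-subunit genes together collected more reads than small-subunit genes in every library. These sums run over 50 large-subunit and 32 small-subunit genes. Equal reads per gene would already give a positive log2 ratio, so its sign does not compare the subunits per gene. The log2 ratio of large-subunit to small-subunit reads was 0.629, 0.75, 0.833 and 0.573 in re-isolated N1OE cells and 0.748, 0.778 and 0.896 in re-isolated N1KO cells. It was 0.59, 0.576, 0.53, 0.575 and 0.61 in marked and 0.927, 0.911, 0.694 and 0.767 in unmarked re-isolated controls, which did not overlap with each other. In culture it was 0.322, 0.325 and 0.346 in N1OE cells and 0.312, 0.397, 0.379 and 0.362 in controls, below every re-isolated library. The sign depends on the measure: the mean log2 CPM of the large-subunit genes minus that of the small-subunit genes averaged -0.26, -0.18 and -0.31 in re-isolated N1OE, N1KO and control cells and -0.94 and -0.87 in cultured N1OE and control cells. The order of the groups depends on it too: with medians in place of means the difference averaged 0.03, -0.31 and -0.24 in re-isolated N1OE, N1KO and control cells and -0.19 and -0.14 in cultured N1OE and control cells. The mean log2 difference was -0.42 in marked and -0.18 in unmarked controls, but the median difference was -0.04 in marked and -0.49 in unmarked ones.

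**Figure D1:**
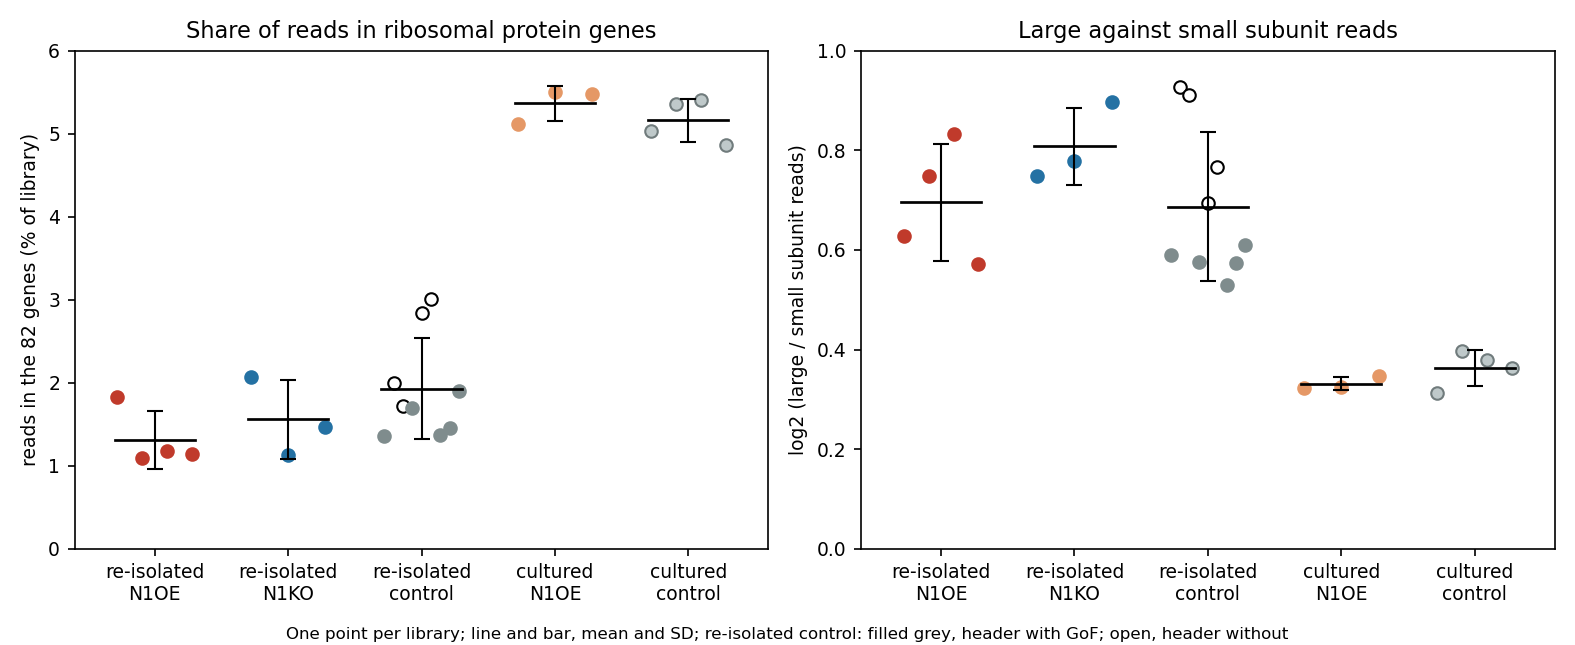
Left, percent of each library's reads in the 82 ribosomal protein genes; right, log2 ratio of reads in the 50 large-subunit to the 32 small-subunit genes. Each point is a library of 1 of the 5 groups and lines with bars are mean ± SD, with re-isolated controls filled where the header carries GoF and open where it does not; re-isolated libraries lie between 1.09% and 3.01% and cultured ones between 4.86% and 5.50%.

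Levels per kb of merged exon spanned a wide range within each group, although the proteins are needed in matched amounts. Merged exons join those of all annotated transcripts of a gene and can be longer than its main mRNA. The levels and their order thus depend in part on the annotation. Rplp1, a protein of the flexible stalk that recruits translation factors, had the highest mean over the 23 libraries at 1051 CPM per kb, followed by Rpl4, a core large-subunit protein, at 804 and Rps15, which lies near the decoding centre, at 544. In the re-isolated groups Rpl4 ranked first, with 657 CPM per kb in N1OE, 700 in N1KO and 729 in control cells, whereas Rplp1 ranked first in culture with 2725 in N1OE and 2681 in control cells. The lowest means belonged to Rpl3l at 0.55, Rps10 at 1.55 and Rpl36al, the autosomal paralog of Rpl36a, at 2.21 CPM per kb. Low values for Rps10 and Rpl24 carry a limit: 51.8% and 81.7% of the 50-base windows of their transcripts also occur in other annotated genes, and reads that match several genes may have been lost or moved in counting. At least 50% of the windows are shared for 29 of the 82 genes, and the median share is 41.0%.

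The comparison of re-isolated with cultured controls asks what differs between satellite cells after engraftment and the progenitors in culture. Of the 82 genes 65 were lower in re-isolated control cells and 3 were higher, while 33.9% of the 13731 genes tested were lower and 24.1% higher. The median log2 difference was -1.83 for the ribosomal protein genes and -0.23 for all tested genes. The fall covered both subunits, with 37 of 50 large-subunit genes lower (3 higher, median -1.58) and 28 of 32 small-subunit genes lower (0 higher, median -2.11). The groups did not overlap, with re-isolated controls lower, for 63 genes (24.7% of all genes) and, with them higher, for 1 gene (14.2%). With scaling to the median ratio in place of library totals, the median of all genes moved by 0.25 on the log2 scale. The split of all calls moved to 4023 higher and 3927 lower. The ribosomal protein median lay 1.60 below that of all genes under both scalings. Scaling of whole libraries moves all genes nearly alike, so it could not change this distance and does not test it.

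Rps12, a small-subunit protein for which 83.2% of 50-base windows recur in other genes, had 17.6, 32.8 and 45.1 CPM as lowest, median and highest in 9 re-isolated controls against 640.5, 650.2, 722 and 569.8 CPM in the 4 cultured controls, a log2 difference of -4.45 (SE 0.25, limma adjusted p = 5.12e-09). Rps29, a short zinc-binding protein of the small subunit, ranged from 10.7 to 32.9 CPM against 491, 581, 566 and 495 CPM (-4.79, adjusted p = 1.73e-08). Rps28, another short small-subunit protein, averaged 11.8 ± 5.08 against 337 ± 26 CPM (SD, n = 9 and 4) and fell by 4.96 on the log2 scale (adjusted p = 1.98e-08). For these genes the highest re-isolated control was far under the lowest cultured control. On the large subunit, Rpl17, which lines the exit tunnel, averaged 67.9 ± 21.5 against 825 ± 30.5 CPM (-3.66, adjusted p = 8.52e-09), and Rpl12, part of the stalk base, 93.9 ± 25.7 against 842 ± 112 CPM (-3.20, adjusted p = 1.73e-08).

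The stalk showed unequal differences. Rplp1 averaged 199 ± 57 CPM in re-isolated against 1338 ± 267 CPM in cultured controls (-2.79, adjusted p = 3.71e-07) and its dimer partner Rplp2 65 ± 33.4 against 529 ± 65.2 CPM (-3.20, adjusted p = 4.01e-06). Rplp0, which anchors the dimers to the ribosome, averaged 712 ± 146 against 1108 ± 184 CPM, a smaller difference of -0.65 (SE 0.22, limma adjusted p = 0.019). Rpsa, a small-subunit protein also known as the laminin receptor, averaged 409.7 ± 117 against 2256 ± 218 CPM (-2.51, adjusted p = 7.33e-07).

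The 3 genes that were higher in re-isolated controls had low levels throughout. Rpl36al had 2.86, 4.73 and 8.74 CPM as lowest, median and highest in re-isolated controls against 0.368, 0.851, 0.835 and 0.654 CPM in cultured controls, with no overlap (2.83, adjusted p = 1.44e-05). Rpl24, a large-subunit protein at the subunit interface, averaged 4.63 ± 2.5 against 1.52 ± 0.349 CPM (1.40, adjusted p = 0.015). Rpl3l averaged 1.13 ± 0.864 against 0.104 ± 0.0626 CPM (2.28, adjusted p = 0.048), and lost its call with voom on the recovered reads (adjusted p = 0.20), a replicate block (0.088), a pseudocount of 5 (0.065), no filter (0.055), totals without ribosomal protein and mitochondrial genes (0.053) and without any 1 library except re-isolated control replicate 1, 7 or 9 (up to 0.117). The call of Rpl24 was lost with the block (0.097) and with marked controls alone (0.078). Among the 14 genes that passed in neither direction, Rpl4 had a log2 difference of -0.51, Rpl34 of 0.12, Rpl7l1, a paralog of Rpl7, of 0.17 and Rpl13 of -0.08. With marked controls alone 72 of 81 genes tested were lower and 1 higher (37.5% and 25.3% of all genes), and with unmarked controls alone 61 of 82 were lower and 5 higher (37.9% and 27.8%).

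**Figure D2:**
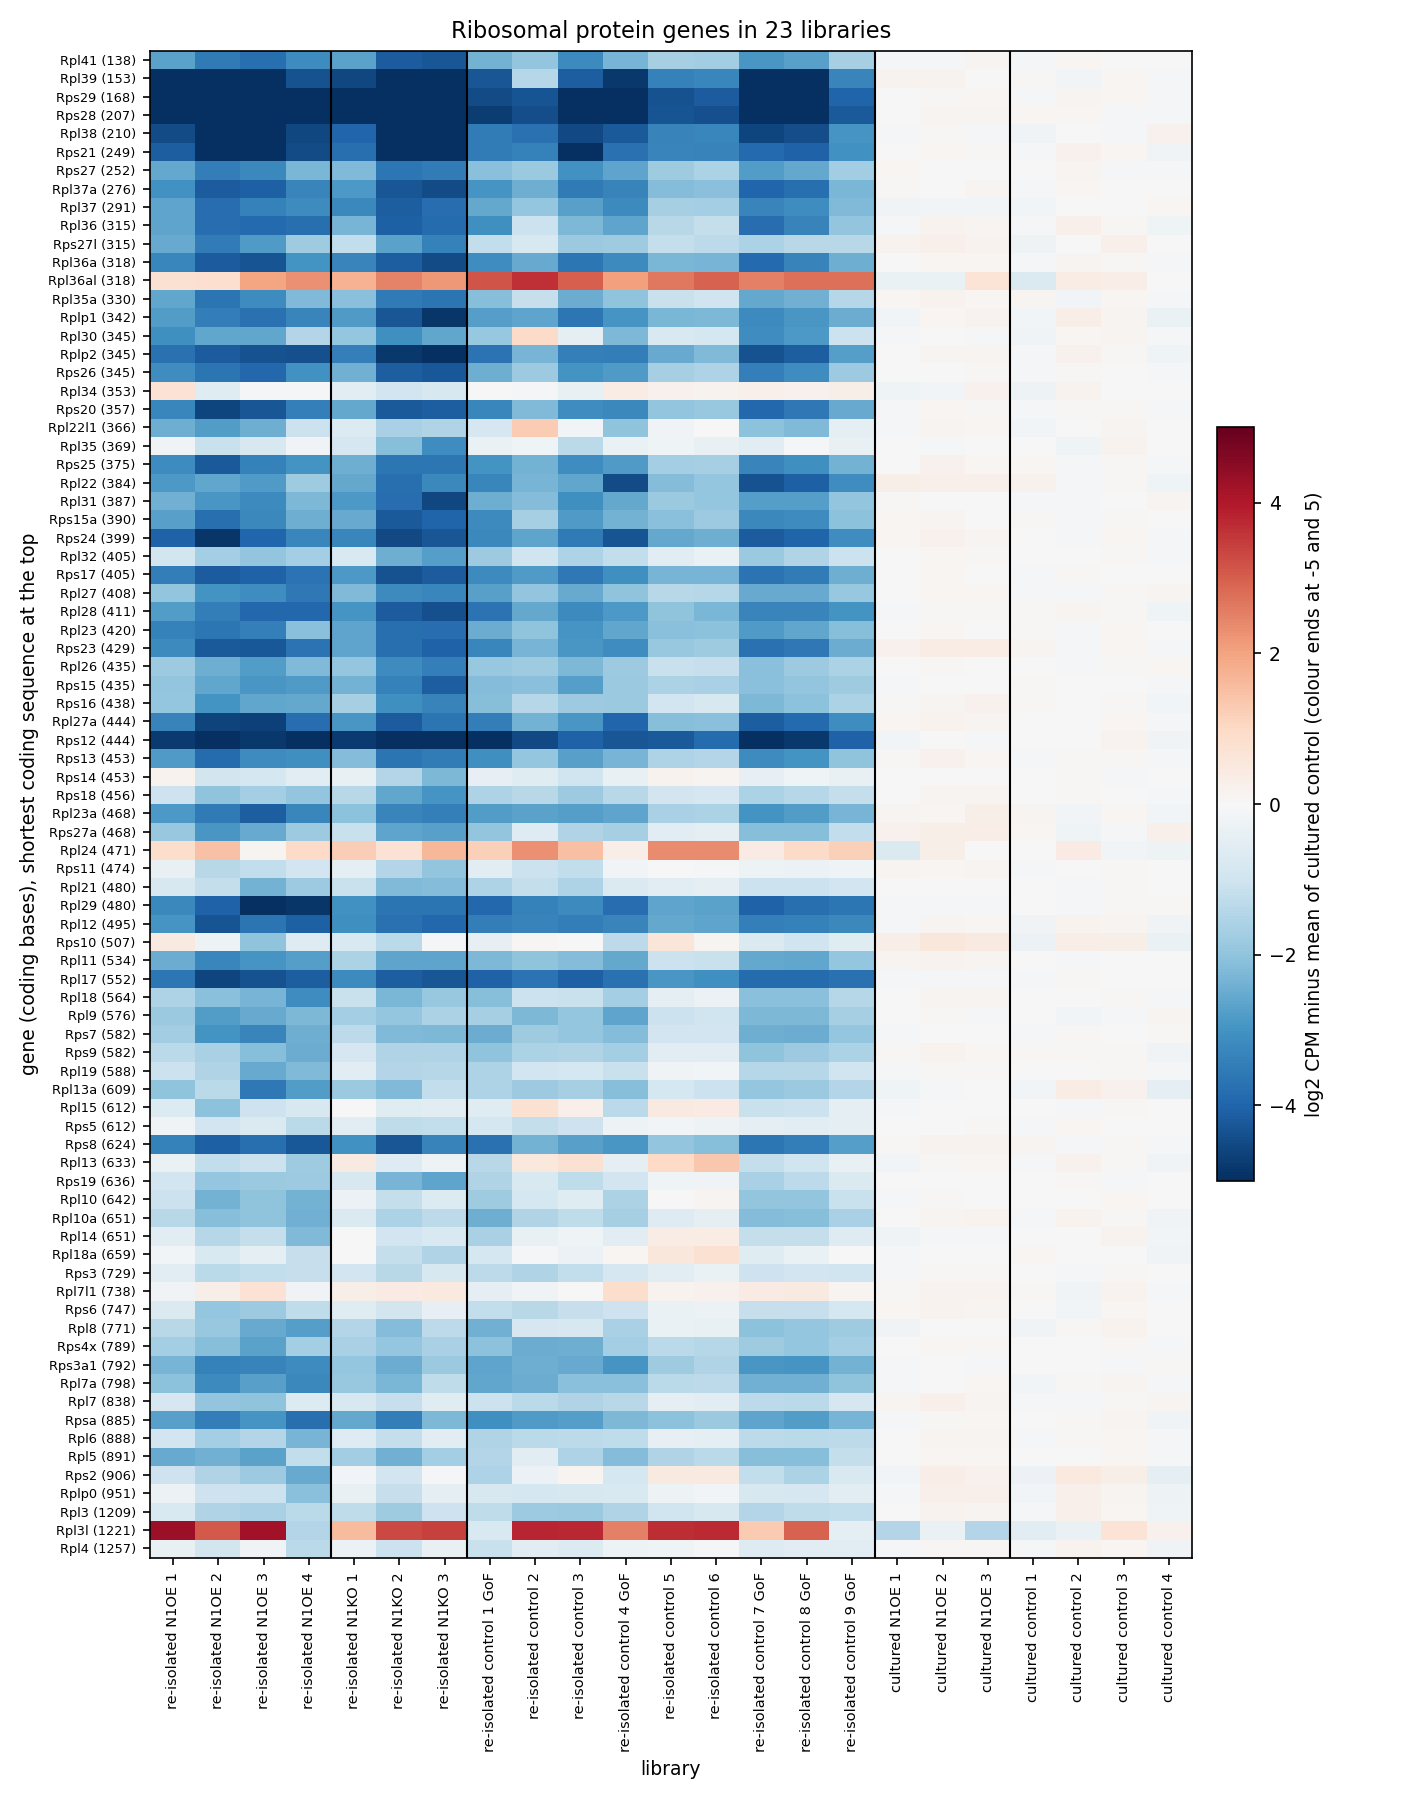
Log2 CPM of the 82 ribosomal protein genes (rows, ordered by coding length) in the 23 libraries (columns, by group), each minus the gene's mean in cultured controls; colour ends at 5 in either direction. Most rows are lower in the 16 re-isolated libraries, and the few higher rows include Rpl36al and Rpl3l.

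The size of the difference went with the length of the coding sequence. In re-isolated against cultured controls the median log2 difference was -2.49 in the 27 genes with 138 to 399 coding bases, -1.95 in the 28 with 405 to 582 and -0.97 in the 27 with 588 to 1257. Across the 82 genes, which share libraries and are no independent replicates, Spearman's rho between coding bases and log2 difference was 0.50, and it was -0.09 over 5854 other tested genes with coding sequences no longer than the longest of the 82. Merged exon length is another measure, by which 830 other tested genes had at most 1500 bases, as did 26 of the 82. Of these 830 genes, 365 were higher and 109 lower in re-isolated controls (median 0.78). They were not matched to the 82 genes by coding length, and the part of transcript length in the differences was not tested.

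Re-isolated against cultured N1OE cells gave a like picture in libraries that shared none with the control comparison. Setting and library kit were joined here too, so the likeness cannot tell them apart. Of 82 genes 71 were lower in re-isolated N1OE cells and 2 higher, with 33.0% of the 13178 genes tested lower and 25.3% higher, and the median was -2.57 (all genes -0.23). Scaling to the median ratio moved the median of all genes by 0.21. The ribosomal protein median lay 2.34 below it under both scalings, a distance that scaling of whole libraries cannot change. Rps29 had 6.96, 3.56, 4.21 and 9.18 CPM in re-isolated N1OE cells against 521, 554 and 576 CPM in cultured N1OE cells (-6.61, adjusted p = 1.17e-08), and Rps28 9.6, 6.65, 6.27 and 6.9 against 344, 369 and 368 CPM (-5.62, adjusted p = 9.71e-09). Rpl39, a very short tunnel-lining protein of the large subunit, had 6.72, 3.82, 6.1 and 16.5 against 387, 392 and 346 CPM (-5.70, adjusted p = 1.76e-07). Rps12 fell by 5.08 and Rplp2 by 4.23 on the log2 scale (adjusted p = 2.60e-08 and 1.01e-07). The higher genes were Rpl36al, with 1.13, 1.19, 2.66 and 3.32 against 0.495, 0.503 and 1.07 CPM (adjusted p = 0.045), and Rpl3l, with 2.85, 1.19, 2.66 and 0 against 0, 0.0629 and 0 CPM (adjusted p = 0.019). Rpl3l had no read in 1 re-isolated and 2 cultured libraries, so no fold is given, and its call was lost without cultured N1OE replicate 1 (adjusted p = 0.053). The Rpl36al call was lost with a pseudocount of 5 (0.062), no filter (0.075), totals without ribosomal protein and mitochondrial genes (0.059), array weights (0.242), voom (0.06) and the block (0.096). It was also lost without re-isolated N1OE replicate 3 or 4 or any 1 cultured N1OE library (up to 0.188). Groups did not overlap for 75 genes with re-isolated cells lower (36.5% of all genes) and for 1 with them higher (26.7%). By coding length the medians were -3.35, -2.63 and -1.63 from the shortest to the longest genes, with rho 0.55 over 82 genes and -0.04 over 5566 other genes up to the same length.

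Lists of genes that work with the ribosome are set here beside all genes tested between re-isolated and cultured controls, of which 33.9% were lower and 24.1% higher. Of 39 translation factors tested 19 were lower and 6 higher (median -0.55), led by Eif4b, a helicase cofactor in initiation, at -2.95 (SE 0.19, limma adjusted p = 1.32e-08), and with the ribosome-bound scaffold Rack1 at -1.99 (SE 0.23, limma adjusted p = 3.42e-06). Of 46 ribosome biogenesis genes 13 were lower (28.3%) and 7 higher (15.2%), both under the shares of all genes (median -0.16). Among the lower ones was Polr1a, the catalytic subunit of RNA polymerase I, at -2.04 (SE 0.22, limma adjusted p = 1.81e-06). Of 12 growth-control genes 7 were lower and 3 higher. Mtor, the kinase that governs TOP mRNAs, changed by -2.76 (SE 0.24, limma adjusted p = 1.96e-07) and Eif4ebp2, an inhibitor of cap-dependent initiation, by -2.41 (SE 0.15, limma adjusted p = 1.20e-08). Myc, a transcription factor for ribosome genes, was higher at 3.0 (SE 0.20, limma adjusted p = 1.93e-08). Of 77 mitochondrial ribosomal proteins 26 were higher (33.8%) and 12 lower (15.6%), and the rest passed in neither direction (median 0.22). Among the higher ones was Mrps10 at 1.56 (SE 0.19, limma adjusted p = 7.63e-06). Beside these, 4 of 5 fibro-adipogenic, 5 of 6 macrophage and 3 of 3 tested Schwann and glial markers were higher in re-isolated controls, and 5 of 12 myogenic markers were higher and 3 lower. In re-isolated against cultured N1OE cells, 19 of 39 translation factors, 15 of 46 biogenesis genes and 18 of 77 mitochondrial ribosomal proteins were lower, and 3, 3 and 9 were higher, when 33.0% of all genes were lower and 25.3% higher.

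**Figure D3:**
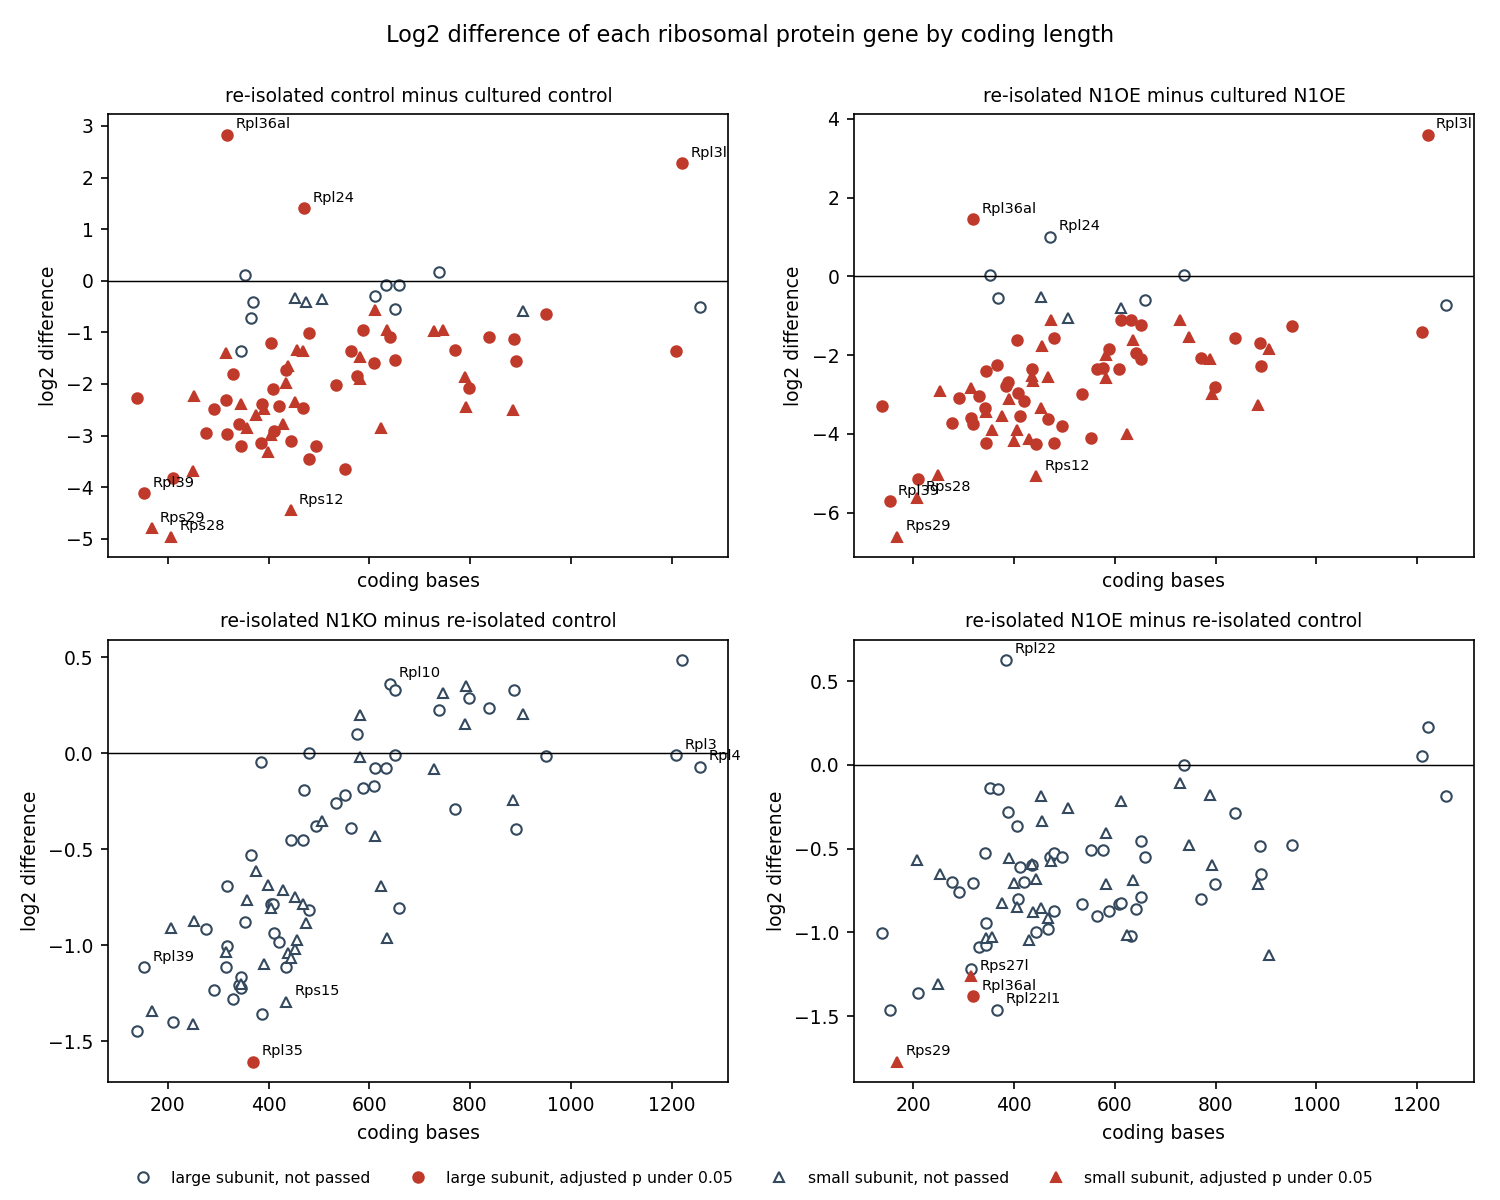
Log2 difference of each ribosomal protein gene against its coding bases in 4 comparisons: re-isolated minus cultured control, re-isolated minus cultured N1OE, re-isolated N1KO minus control and re-isolated N1OE minus control. Circles are large-subunit and triangles small-subunit genes, red marks limma adjusted p under 0.05, and shorter genes tend to lie lower in each panel (rho 0.50, 0.55, 0.81 and 0.43).

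In culture, NICD1 overexpression left the ribosomal protein genes without a call. Of 80 genes tested 0 passed in limma in either direction, while 4.73% of the 12314 genes tested were higher and 6.03% lower. At an unadjusted p under 0.05 there were 2 genes, limma-voom called 0, and array weights called 3. The median was 0.05 (all genes 0.07). With scaling to the median ratio it was -0.01, and the calls over all genes moved from 583 higher and 742 lower to 433 higher and 849 lower. The smallest p-values belonged to Rps23, a protein of the decoding centre, with 1025, 1128 and 1133 CPM in N1OE cells against 958, 811, 945 and 810.3 CPM in controls (0.32, SE 0.10, limma adjusted p = 0.083), to Rpl22, an RNA-binding large-subunit protein, with 406, 397 and 393 against 386, 315, 341 and 281 CPM (0.28, adjusted p = 0.14), and to Rps27a, made as a fusion with ubiquitin (0.27, adjusted p = 0.17). These are the 3 genes that array weights called. Ranges did not overlap, with N1OE cells higher, for 7 genes (21.1% of all genes) and, with them lower, for 2 (13.7%). The genes that build ribosomes did include calls: 5 of 46 biogenesis genes were higher and 0 lower (median 0.29). Ppan, needed for large-subunit assembly, averaged 62.7 ± 3.36 CPM in N1OE cells against 39.8 ± 6.37 CPM in controls (SD, n = 3 and 4), 0.67 (SE 0.14, limma adjusted p = 0.028), Polr1a changed by 0.44 (SE 0.10, limma adjusted p = 0.032) and the pseudouridine synthase Dkc1 by 0.78 (SE 0.18, limma adjusted p = 0.037). Of 77 mitochondrial ribosomal proteins 4 were higher (5.19%, near the share of all genes) and 0 lower (median 0.22), with Mrpl1 at 0.55 (SE 0.11, limma adjusted p = 0.024), Mrpl10 at 0.41 (SE 0.09, limma adjusted p = 0.032) and Mrpl15 at 0.35 (SE 0.09, limma adjusted p = 0.045). Of 39 translation factors and 12 growth-control genes 0 passed in limma, with 2 and 2 at an unadjusted p under 0.05 and medians of 0.02 and 0.03.

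In re-isolated cells 3 of 82 ribosomal protein genes (3.66%) were lower in N1OE than in control cells and 0 were higher. The lower share was close to that of all 14155 genes tested, of which 3.29% were lower and 3.78% higher, so the count does not set these genes apart. Rps29 had 6.96, 3.56, 4.21 and 9.18 CPM in the 4 N1OE libraries against 23.9, 12.9, 11.9, 10.7 and 32.9 CPM in the 5 marked and 27, 13.1, 26 and 29.5 CPM in the 4 unmarked controls. Every N1OE library was below every control, and the log2 difference was -1.77 (SE 0.40, limma adjusted p = 0.0097). This call was lost without N1OE replicate 2 (adjusted p = 0.051) and with a replicate block (adjusted p = 0.079). Rps27l, a p53-regulated paralog of Rps27, had 34.8, 17.8, 27.8 and 58 CPM in N1OE cells against 54.6, 77 and 113 CPM as lowest, median and highest in 9 controls (-1.26, SE 0.34, limma adjusted p = 0.03). The fourth N1OE library reached into the controls' range, and the call was lost without N1OE replicate 1, 2 or 3 (adjusted p = 0.056, 0.142 and 0.093), with marked controls alone (0.055) and with the block (0.182). Rpl36al had 1.13, 1.19, 2.66 and 3.32 CPM in N1OE cells against 2.86, 4.73 and 8.74 CPM in controls (-1.38, SE 0.41, adjusted p = 0.048), with 1 N1OE library inside the controls' range. That call was lost without any 1 library except N1OE replicate 4 or control replicate 4 (adjusted p up to 0.155), with a minimum of 5 CPM (0.057), no filter (0.084), voom (0.071), the block (0.26) and marked controls alone (0.142). Only Rps29 had no overlap between the groups (1 gene lower, against 1.82% of all genes, and 0 higher, against 2.98%).

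Beyond these 3, the log2 differences leaned one way without passing the test. The median over the 82 genes was -0.70, with 79 negative, against 0.06 over all tested genes. An unadjusted p under 0.05 was seen for 37 of the 82. The share of all genes at that level is not given here, so this count does not set them apart. The median was -0.70 for both subunits, and by coding length it was -0.95, -0.64 and -0.60 from the shortest to the longest of the 3 length classes. The stalk genes gave -0.48 for Rplp0, -0.53 for Rplp1 and -0.95 for Rplp2, and Rpsa gave -0.71, with adjusted p between 0.15 and 0.36. Of 39 translation factors (median -0.27), 46 biogenesis genes (0.17) and 77 mitochondrial ribosomal proteins (-0.29) 0 passed in limma in either direction, with 3, 4 and 8 at an unadjusted p under 0.05.

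The count depended on which controls entered. Against the 5 marked controls 1 gene was higher and 1 lower (6.26% and 5.47% of all genes), with a median of -0.39. The higher gene was Rpl22, at 44.5, 54.9, 46.2 and 96.3 CPM in N1OE cells against 34.2, 14.8, 16, 19.5 and 38.3 CPM in marked controls (1.34, SE 0.37, limma adjusted p = 0.021), and the lower one was Rps29 (-1.57, adjusted p = 0.026). Against the 4 unmarked controls 36 genes were lower and 0 higher (10.1% and 9.33%), with a median of -1.05. They included Rpl13, a large-subunit protein, at 682, 371, 412 and 251 CPM in N1OE cells against 1252, 1459, 1712 and 2219 CPM in unmarked controls (-2.01, adjusted p = 0.00074), Rps2, which sits at the mRNA entry, at -1.90 (adjusted p = 0.001), and Rpl22l1 at -2.44 (adjusted p = 0.00043). In the unmarked comparison Rpl22 differed by -0.26 (adjusted p = 0.63). Leaving out 1 library gave between 0 and 4 calls, with 1 without N1OE replicate 1, 0 without N1OE replicate 2 and 1 without N1OE replicate 3. As a sign of library complexity, genes seen by a single read outnumbered genes seen by 2 reads by a factor of 4.18 to 6.82 in N1OE cells, 4.17 to 5.91 in marked and 1.08 to 1.5 in unmarked controls, and the part of library handling in these counts was not tested. Of the marker lists, tested against the 9 controls, 3 of 12 myogenic, 1 of 4 endothelial, 1 of 3 Schwann and glial and 1 of 2 erythroid markers were higher in N1OE cells, and 1 of 5 fibro-adipogenic and 1 of 6 macrophage markers were lower.

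**Figure D4:**
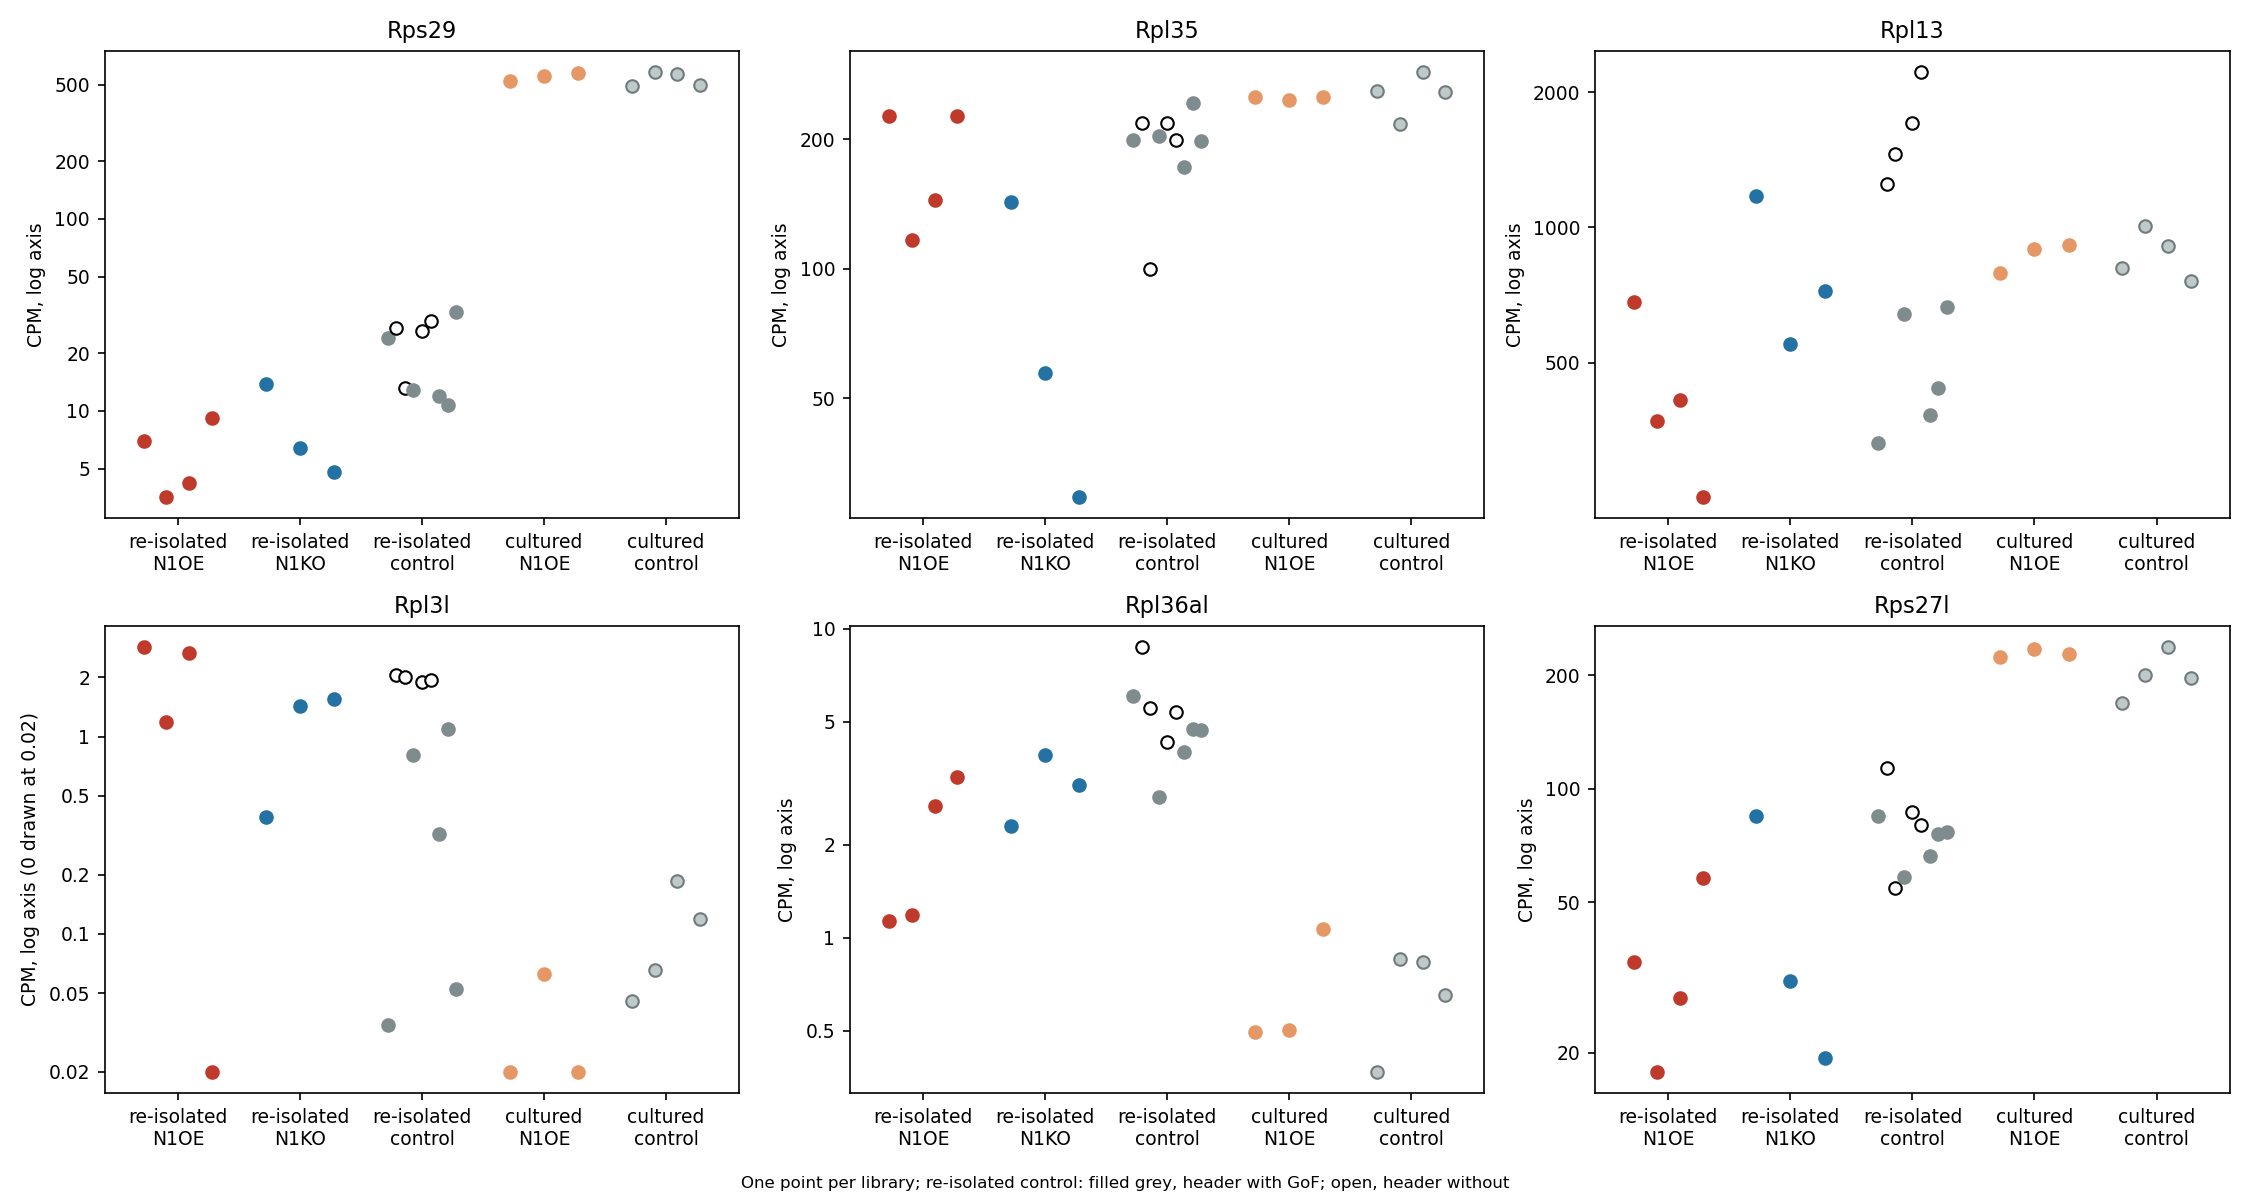
CPM of Rps29, Rpl35, Rpl13, Rpl3l, Rpl36al and Rps27l in every library (log axis; 0 drawn at 0.02), by group, with re-isolated controls filled where the header carries GoF and open where it does not. Rps29 in the 4 re-isolated N1OE libraries (3.56 to 9.18 CPM) lies under all 9 re-isolated controls (10.7 to 32.9 CPM), and the 4 open Rpl13 points lie above the 5 filled ones.

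Between re-isolated N1KO and control cells 1 ribosomal protein gene passed the test. Rpl35, which sits at the end of the large subunit's exit tunnel, was lower, with 143, 57.3 and 29.5 CPM in the 3 N1KO libraries against 199, 203, 173, 243 and 198 CPM in marked and 218, 99.96, 219 and 199 CPM in unmarked controls. The log2 difference was -1.61 (SE 0.37, limma adjusted p = 0.048), and N1KO replicate 1 lay above the lowest control, replicate 3. With 1 of 82 genes lower and 0 higher, 0.191% of 14155 genes were lower and 0.466% higher. The next in order were Rpl31, another protein near the tunnel exit, with 83.4, 42.8 and 25.6 CPM in N1KO cells against 71.8, 113 and 167 CPM as lowest, median and highest in controls (-1.36, limma adjusted p = 0.068), and Rps15, with 149, 74.2 and 44.1 against 112, 195 and 256 CPM (-1.29, adjusted p = 0.072). Rpl34, of the large subunit, had 19.2, 14.6 and 16.2 CPM against 21.8, 32.2 and 36.5 CPM and was the 1 gene whose ranges did not overlap (0.961% of all genes lower and 2.85% higher), with -0.88 and adjusted p = 0.18. The median was -0.69 (all genes 0.01). An unadjusted p under 0.05 was seen for 33 of the 82 genes, a count given without the share of all genes at that level. The count changed with the setting: limma-voom called 3 genes, array weights 6, and median ratio scaling, a minimum of 5 CPM or a replicate block 0. Leaving out 1 library gave 5 calls without N1KO replicate 1, 2 without control replicate 3 and 0 without any other library.

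The differences in N1KO cells were ordered by coding length. The median was -1.11 in the shortest of these classes, -0.77 in the middle one and -0.01 in the longest, and Spearman's rho over the 82 genes was 0.81, against 0.06 over 6102 other tested genes up to the same length. With marked controls alone rho was 0.69 and with unmarked controls alone 0.78. Single libraries contributed unequally. Within each library, rho between coding bases and a gene's deviation from its mean over the 16 re-isolated libraries was 0.16, 0.71 and 0.74 in N1KO replicates 1 to 3, while it was 0.27, 0.37, 0.27 and -0.50 in the N1OE replicates and between -0.77 and 0.15 in the controls, and N1KO replicate 1 lay among the other groups' values. With marked controls 2 genes were lower and 0 higher (1.33% and 2.59% of all genes; median -0.28): Rpl35 at -1.70 (limma adjusted p = 0.021) and Rps15 at -1.31 (adjusted p = 0.044). With unmarked controls 18 were lower and 0 higher (3.41% and 3.88%; median -1.04), among them Rpl30 at -2.24 (adjusted p = 0.0042) and Rplp2 at -1.81 (adjusted p = 0.0076). The factor by which genes seen by a single read outnumbered those seen by 2 was 1.25 to 1.4 in N1KO cells, inside the range of the unmarked controls. Of the related lists, 0 of 39 translation factors, 0 of 46 biogenesis genes and 0 of 77 mitochondrial ribosomal proteins passed in limma, with 3, 6 and 7 at an unadjusted p under 0.05 and medians of -0.20, -0.31 and -0.13. The 5 fibro-adipogenic and 6 macrophage markers had medians of 1.65 and 1.83 with 0 calls, and 2 of 4 endothelial markers were higher.

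Set against each other, re-isolated N1OE and N1KO cells differed in Rpl35, with 226, 117, 145 and 226 CPM in N1OE against 143, 57.3 and 29.5 CPM in N1KO cells. It was the 1 gene of 82 that was higher in N1OE cells, at 1.46 (SE 0.42, limma adjusted p = 0.04), and 0 were lower, when 2.92% of 14155 genes were higher and 4.43% lower. Limma-voom, array weights, median ratio scaling, no filter and a replicate block each called 0. Leaving out 1 library gave 2 calls without N1KO replicate 1 and 0 without N1OE replicates 1, 3 or 4, N1KO replicates 2 or 3 or control replicate 9. Rps2 had 459, 328, 264 and 163 CPM in N1OE against 859, 475 and 909 CPM in N1KO cells, a log2 difference of -1.34 (SE 0.51, limma adjusted p = 0.12), and was 1 of 2 genes lower without overlap (12.1% of all genes), with 0 higher (11.2%). The median was -0.12 (all genes 0.07) and rho with coding bases -0.51. Median ratio scaling moved the median of all genes by -0.11. The ribosomal protein median lay 0.19 below it under both scalings, a distance that scaling of whole libraries cannot change. Of 46 biogenesis genes 3 were higher (median 0.46), namely Wdr12 at 1.10 (SE 0.32, limma adjusted p = 0.037), Tsr1 at 1.22 (SE 0.37, limma adjusted p = 0.046) and Wdr43 at 0.99 (SE 0.30, limma adjusted p = 0.049), all needed for pre-ribosome maturation. Since the same factor was 4.18 to 6.82 in N1OE and 1.25 to 1.4 in N1KO libraries, genotype and library handling cannot be told apart here. Fibro-adipogenic markers also differed, with 1 of 5 lower in N1OE cells and a median of -3.19.

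Re-isolated controls with the header mark were also compared with those without it. Of 82 genes 26 were lower in the 5 marked than in the 4 unmarked controls and 0 were higher, with 14.0% of 13230 genes lower and 13.6% higher. Ranges did not overlap for 20 genes that were lower (13% of all genes) and 0 that were higher (10.8%). Rpl13, for which 80.3% of 50-base windows recur in other genes, had 331, 640.3, 382, 438 and 664 CPM in marked against 1252, 1459, 1712 and 2219 CPM in unmarked controls, -1.78 (SE 0.28, limma adjusted p = 0.0012). The same was seen for Rpl8, a core large-subunit protein, at -1.38 (adjusted p = 0.0017), Rpl15 at -1.39 (adjusted p = 0.0017), Rps2 at -1.38 (adjusted p = 0.0028) and Rpl27a at -1.33 (adjusted p = 0.0039). Rpl22 had 34.2, 14.8, 16, 19.5 and 38.3 CPM in marked against 65.6, 53.6, 73.6 and 86.1 CPM in unmarked controls (-1.60, adjusted p = 0.004). Rplp0, by contrast, gave -0.22 (adjusted p = 0.49). The median was -0.58 for the large subunit, with 18 of 50 lower, and -0.58 for the small subunit, with 8 of 32 lower, and rho with coding bases was -0.00207. Leaving out 1 control gave 14 to 33 calls, with 14, 15, 15 and 17 without replicates 5, 6, 7 and 8. Of 39 translation factors 10 were lower and 1 higher, led by Eif1, which selects the start codon, at -1.36 (SE 0.21, limma adjusted p = 0.0012) and Tpt1, itself a TOP mRNA, at -2.43 (SE 0.44, limma adjusted p = 0.0024). Larp1, the binder of TOP tracts and 1 of the 12 growth-control genes, was higher at 1.56 (SE 0.28, limma adjusted p = 0.0026). Summed over these 12 genes, the level was 1205, 1087, 1268, 1089 and 1130 CPM in marked controls. It was 1135, 1375, 1299 and 1400 CPM in unmarked ones, with overlap, so Larp1 alone does not describe the list. Marker sums also differed, with fibro-adipogenic genes at 3935 ± 2843 CPM in marked and 389.5 ± 351 CPM in unmarked controls, and myogenic genes at 2174 ± 509 and 3706 ± 334 CPM (SD, n = 5 and 4). Of 11 mitochondrially encoded genes 7 were lower, and 6 of 12 myogenic markers were lower, in marked controls. The part of these differences in the ribosomal protein result was not tested.

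Whether the effect of NICD1 differed between re-isolated and cultured cells was tested as an interaction. In limma 0 of 82 genes passed in either direction, with 2.36% of 14509 genes higher and 0.910% lower. An unadjusted p under 0.05 was seen for 13 of the 82, a count given without the share of all genes at that level. The median was -0.71 (all genes 0.04). Rps29 had the smallest p, at -1.82 (SE 0.53, limma adjusted p = 0.058), followed by Rps27l (-1.46, adjusted p = 0.11) and Rps23 (-1.37, adjusted p = 0.19). Limma-voom called 0 genes and array weights 12. With unmarked controls alone 18 were lower (4.51% of all genes; 0 higher, 6.31%), and with marked controls alone 0 in either direction (2.22% lower and 4.54% higher). Leaving out 1 library gave 0 to 2 calls, with 2 without N1OE replicate 4 or N1KO replicate 1 and 1 without control replicate 3, 4, 7 or 8 of the re-isolated cells.

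The pair Rpl22 and Rpl22l1 separated re-isolated N1OE cells from re-isolated controls irrespective of the header mark. Rpl22 protein is known in mouse cells to hold down the mRNA of Rpl22l1, so the paralogs are usually read together. The share of Rpl22l1 in the pair, from CPM per kb, was 30.7%, 22.3%, 30.2% and 34.9% in the 4 N1OE libraries. In the controls it was 63.9%, 64.5%, 62.4%, 54.5% and 67.8% with the mark and 80.1%, 64.7%, 56.6% and 56.5% without it, so the groups did not overlap. The means of 29.5 ± 5.24% and 63.4 ± 7.72% (SD, n = 4 and 9) differed by -33.9 percentage points. The exact two-sided permutation p was 0.0028, the smallest this design can give, and 0.0245 after Benjamini-Hochberg adjustment over 35 such tests, which were chosen after the values were seen. Against marked controls alone the exact permutation p was 0.0159 and against unmarked ones 0.0286, again the smallest possible. Without lengths the difference was -32.2 points, and leaving out 1 library kept it between -31.5 and -35.7 points.

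N1KO cells had a Rpl22l1 share of 55.4%, 59.8% and 52.2%, a mean of 55.8 ± 3.83% that differed from the controls by -7.68 points (exact permutation p = 0.0909, adjusted 0.265). Between N1OE and N1KO cells the shares did not overlap and differed by -26.2 points, but 4 against 3 libraries cannot go below an exact permutation p of 0.0571 (adjusted 0.182). In culture the share was 22.2 ± 1.68% in N1OE cells and 25 ± 3.35% in controls (SD, n = 3 and 4; exact permutation p = 0.343, where 0.0571 was the smallest possible). Re-isolated controls thus stood 38.5 points above cultured controls (exact permutation p = 0.0028, adjusted 0.0245), whereas re-isolated N1OE cells stood 7.29 points above cultured N1OE cells (exact permutation p = 0.171). The levels behind the shares were low in re-isolated cells. Rpl22l1 had 13.5, 10.8, 13.7 and 35.2 CPM in N1OE cells and 46.7, 24.2 and 26.5 CPM in N1KO cells, against 41.3, 18.4, 18.1, 15.9 and 55.1 CPM in marked and 181, 67.1, 65.5 and 76.3 CPM in unmarked controls. Rpl22 had 44.5, 54.9, 46.2 and 96.3 CPM in N1OE cells and 55.1, 23.8 and 35.6 CPM in N1KO cells. Neither gene passed alone against all 9 controls, with -1.46 (limma adjusted p = 0.096) for Rpl22l1 and 0.63 (adjusted p = 0.42) for Rpl22. The 2 genes differed in opposite directions against all 9 and against marked controls alone. Against unmarked controls alone both were lower in N1OE cells, Rpl22l1 by more than Rpl22. Between re-isolated and cultured controls, Rpl22 averaged 44.6 ± 26.4 against 331 ± 44.5 CPM (-3.14, limma adjusted p = 2.56e-05) and Rpl22l1 59.9 ± 50.9 against 74.5 ± 5.9 CPM (-0.73, adjusted p = 0.25). Of their 50-base windows, 57.3% of Rpl22l1 and 5.20% of Rpl22 occur in other genes, so Rpl22l1 is the less certain of the pair.

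**Figure D5:**
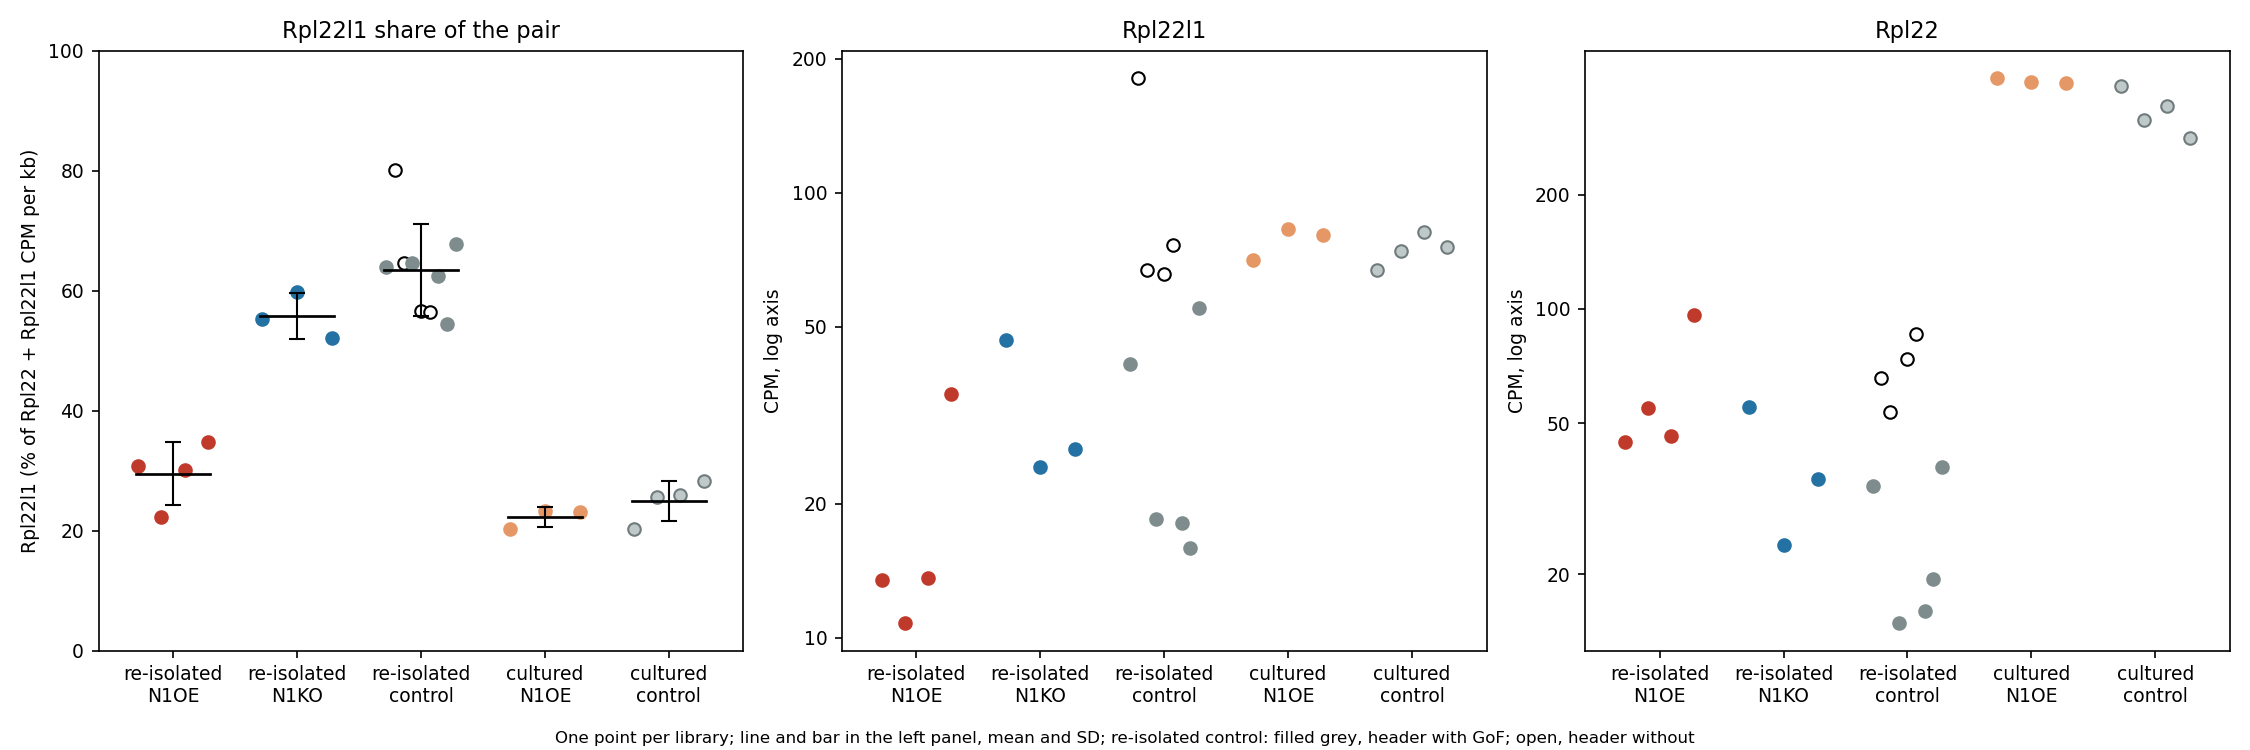
Share of Rpl22l1 in the sum of Rpl22 and Rpl22l1 CPM per kb (left, with mean ± SD), and CPM of Rpl22l1 (middle) and Rpl22 (right) on log axes, for every library by group. The 4 re-isolated N1OE libraries lie between 22.3% and 34.9% and the 9 re-isolated controls between 54.5% and 80.1%.

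Other paralogs also took a larger part of their pair in re-isolated than in cultured controls. Of the 50-base windows, 85.5% of Rpl36a, 53.3% of Rpl7, 63.1% of Rps27 and 85.6% of Rpl3 occur in other genes. For the paralogs Rpl36al, Rpl7l1, Rps27l and Rpl3l it is 24.9%, 9.03%, 13.7% and 0%. Reads of the partners may thus be lost or moved more than those of the paralogs. Setting and library kit are joined in this comparison, and the part of either limit was not tested. Rpl7l1 held 16.1 ± 5.55% against 7.09 ± 0.716% (SD, n = 9 and 4; exact permutation p = 0.0028, adjusted 0.0245), with its own level at 109 ± 29.7 and 94.2 ± 9.49 CPM and that of Rpl7 at 461 ± 131 and 950.4 ± 70.2 CPM. Rpl36al held 12.5 ± 4.53% against 0.230 ± 0.0653% (adjusted 0.0245), and Rps27l 56.7 ± 6.03% against 42.4 ± 4.54% (adjusted 0.0392). In N1OE cells Rps27l held 46.3 ± 4.49% against the 56.7% of re-isolated controls (exact permutation p = 0.0196, adjusted 0.0979). Rpl3l, the muscle paralog, held 0.484 ± 0.426% of its pair in re-isolated and 0.0166 ± 0.00985% in cultured controls (adjusted 0.0979). Its level was 0.0346, 0.804, 0.32, 1.09 and 0.0524 CPM in marked and 2.06, 2.0, 1.89 and 1.93 CPM in unmarked re-isolated controls, a log2 difference of -2.65 (SE 0.88, limma adjusted p = 0.042). In N1KO cells Rpl3l had 0.393, 1.43 and 1.56 CPM. Rpl3 itself had 506 ± 140.1 CPM in re-isolated N1OE, 482 ± 117 in N1KO and 487 ± 114 in control cells. Rpl10l and Rpl39l, the copies best known from the testis, stayed below the level rule: 7 reads of Rpl10l appeared in re-isolated control replicate 5, and 42 reads of Rpl39l in control replicate 9 and 5 in N1KO replicate 1.

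Within the 9 re-isolated controls some genes were steady and others were not. Rpl34, Rplp0 and Rpl12 spanned 0.74, 0.76 and 0.90 on the log2 scale from the lowest to the highest library. Rpl39 spanned 4.88, Rpl3l 4.57 and Rpl30, a small large-subunit protein, 4.08. Rpl30 had 26.7, 20.8, 11.3, 13.5 and 46.9 CPM in marked and 191, 69, 57.9 and 53.4 CPM in unmarked controls (-1.93, limma adjusted p = 0.0095), and Rpl39 had 17.4, 12.2, 4.26, 4.85 and 34.4 and 127, 19.9, 33.2 and 36.1 CPM (-1.93, adjusted p = 0.042). Unmarked control replicate 2 had the highest value of both genes.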

How the data were processed

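Bulk RNA-seq libraries of 16 re-isolated and 7 cultured cell samples were read from 1 deposited table of log2 CPM per gene, in which replicates were kept separate. The authors' values are log2 CPM (counts scaled to a common library total) with a small prior: the lowest value, -4.19, stood for 0 reads (a prior of 0.0548 CPM), and whole reads could be recovered for 100% of the values within 0.05 of a read, with a largest deviation of 0.000976. Per the submitters' processing notes, the tools included FastQC, Trimmomatic 0.33, featureCounts and edgeR, with the mm10 build; the aligner and the annotation are not given in the sources used here. Where reads matching several genes were dropped or split, genes with many near-identical copies are uncertain, as ribosomal protein genes with processed pseudogenes are.

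Groups came from the labels, and the suffix GoF from the column headers, whose meaning the labels do not state. Re-isolated control replicate 7 has the suffix in its header but not in its description. The submitters' kits differed between cultured and re-isolated cells. Differences were tested on the deposited log2 values with limma 3.58.1 (lmFit, then eBayes with trend) in R 4.3.3, two-sided, over genes that reached 1 CPM in 3 or more of the fitted libraries, with Benjamini-Hochberg adjustment over all tested genes and a threshold of 0.05. The fits among re-isolated cells shared 1 estimate of spread over all 16 libraries where N1OE, N1KO and controls were compared, and these comparisons share controls. Sums, shares, permutation tests and figures used Python 3.11.15, numpy 2.4.6, pandas 2.3.3 and matplotlib 3.10.9. Levels per kb used merged exon length from GENCODE M21, and paralog shares were tested over samples by exact permutation in a family of 35, added after the values were seen. Only the limma fit was tested on simulated reads, drawn with 1 fixed spread and with changes planted in well-detected genes. That test does not cover genes near the floor, the wider spread of re-isolated libraries or the permutation tests. Totals were 11637817 to 29154176 reads; reads of amplified cDNA are not independent molecules, so these totals alone do not give the precision.

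The genes and lists were chosen with earlier results of these data known. Named genes followed a rule: paralog pairs, the stalk genes and Rpsa, up to 5 genes per direction with the smallest p among those that passed (or the 3 smallest where fewer than 2 passed), the 3 highest and lowest levels per kb, the 3 widest and narrowest ranges in re-isolated controls, and up to 3 of each other list. Genes named beyond it were chosen after their values were seen. Alternatives were larger pseudocounts on the log2 scale, filters at other levels, scaling by median ratio, limma-voom on recovered reads, array weights, a replicate block, subsets of controls by header and leaving out each library. Counts at an unadjusted p under 0.05 and counts under array weights are given without the share of all genes at the same setting. Such counts do not set the genes apart from others. Deviations of same-numbered libraries from their group means correlated between -0.15 and 0.28, not over 0.1 in every pair, so the numbers were not taken to pair samples.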

Additional observations from a re-analysis of the deposited data

Results flagged for a closer look

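Within groups of 4 to 10 libraries, 123 sets of values were searched for a library that lay apart from the others, and 10 were found. Chance would flag about 1 in 20 such groups if values were independent and normally distributed. Genes measured in the same libraries are not independent, so this rate is only a guide. For Rpl10l and Rpl39l, with 0 reads in 8 of 9 re-isolated controls, the flag was certain. No explanation was tested for any of the 10 flags.

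The share of reads in the ribosomal protein genes was 1.83% in re-isolated N1OE replicate 1, the highest of 4. Rpl10 stood at 881.7 CPM in cultured control replicate 3, the highest of 4, and Rpl31 at 665.5 CPM in cultured control replicate 4. Rpl22l1 reached 35.2 CPM in re-isolated N1OE replicate 4. Re-isolated control replicate 2, which lacks the header mark, had the highest value of 9 for Rpl22l1 (180.9 CPM), Rpl30 (191.3 CPM) and Rpl39 (127.0 CPM). Rpl35 was lowest in re-isolated control replicate 3 at 99.96 CPM. The testis-type paralogs Rpl10l, with 0.358 CPM in control replicate 5, and Rpl39l, with 2.20 CPM in control replicate 9, were each seen in 1 of 9 re-isolated controls.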

How the results depend on the processing

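Between re-isolated and cultured cells the counts of ribosomal protein genes called stayed within 1.5 times under the alternatives run, at 64 to 67 genes in either direction in controls and 69 to 76 in N1OE cells without 1 library each. Array weights gave 3 calls in cultured N1OE against control cells, 6 in re-isolated N1KO against control, 0 in re-isolated N1OE against N1KO, 48 between marked and unmarked controls and 12 in the interaction. The shares of all genes called under array weights are not given here. In re-isolated N1KO against control cells a pseudocount of 1 gave 2 calls, of 5 gave 3, voom 3, and a minimum of 5 CPM or median ratio scaling 0; in re-isolated N1OE against N1KO no filter, median ratio scaling and voom gave 0. Marked controls alone gave 2 calls for N1KO, and unmarked controls alone gave 36 for N1OE, 18 for N1KO and 18 in the interaction. With a replicate block 0 genes passed in re-isolated N1OE or N1KO against control and in N1OE against N1KO; the numbers do not pair the samples, and the comparison of marked with unmarked controls had no block. Leaving out 1 library gave 0 to 0 calls in cultured cells, 0 to 4 for N1OE, 0 to 5 for N1KO, 0 to 2 for N1OE against N1KO, 14 to 33 between the control sets and 0 to 2 in the interaction. The mean log2 difference between subunits, in place of the ratio of sums, was -0.26, -0.18, -0.31, -0.94 and -0.87 in re-isolated N1OE, N1KO and control and cultured N1OE and control cells. The cause of these changes was not tested. Genes near 1 CPM, such as Rpl3l, rest on 0 to 83 reads a library, which limits their values.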
